A study of Mus musculus with 7 samples.

Results

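The complement system was followed through 9 of its genes in the eyes of mice without Agbl5, the gene of CCP5, a carboxypeptidase that trims glutamate side chains of tubulin. The genes were taken by name from the 54532 genes of the deposited table: C1qa, C1qb and C1qc, C1ra, C2, C4b, C3, and the regulators Serping1 and Cfi. All 9 were present, each with a level in every library. RNA was sequenced in 3 libraries from Agbl5 knockout mice, 2 from heterozygous mice, which keep a working copy, and 2 from wildtype mice, to learn what the gene does in photoreceptors. The labels name the tissue as eyeball, whereas the extraction protocol speaks of retina. The labels do not give the strain, age, design of the knockout allele or any treatment. They do not say whether libraries of a genotype came from separate animals either, so the p-values below measure the spread between these libraries, which may be partly technical.

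Complement is a cascade of plasma and tissue proteins that tags targets for removal. In its classical pathway the recognition protein C1q, built from the products of C1qa, C1qb and C1qc, activates the proteases C1r and C1s. These cleave C4 and C2, whose fragments form an enzyme that cleaves C3, the step on which all the pathways converge. Serping1 encodes the C1 inhibitor, which shuts down C1r and C1s, and Cfi encodes factor I, which cuts up deposited C3 and C4 fragments with the help of cofactors. In retina and brain, microglia are the best known source of C1q, and C4 and C3 are known from reactive glia.

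Reads recovered from the deposited values ran from 12244707 to 14339701 per library. They cover the 32141 genes with whole reads in every library, so the libraries themselves were larger. Agbl5 itself stood at 1.53, 1.73 and 1.26 FPKM in knockout, 4.21 and 5.34 FPKM in heterozygous and 9.89 and 8.57 FPKM in wildtype libraries, in the order of the labels. FPKM are fragments per kilobase of gene length and per library size, so levels can be set side by side between genes as far as that length matches the transcripts present. Photoreceptor RNA was abundant in all libraries, with the rod transducin gene Gnat1 at 2428 to 2468 FPKM in knockout and 2512 to 2904 FPKM in controls, the heterozygous and wildtype libraries together. Knockout 1 and heterozygous 1 held much lens RNA, with the crystallin gene Cryaa at 2541 and 1733 FPKM against 1.11 to 12.3 FPKM in the other 5 libraries. Knockout 3 and wildtype 2 came from females by Xist at 158 and 181 FPKM, with the Y-linked Ddx3y listed at 0. As this was bulk tissue, more cells of a type and more RNA per cell cannot be told apart in any of the differences below.

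The 5 genes with at least 1 FPKM in every library, C1qa, C1qb, C1qc, C4b and Serping1, were all higher in knockout libraries, with no overlap with either of the other genotypes. C4b differed most, with 5.11 times the mean control level, and the other 4 had 2.02 to 2.22 times that level. The remaining 4 genes, C1ra, C2, C3 and Cfi, averaged below 1 FPKM and none of them passed a test. Transcripts for C1q, the recognition protein, and for C4, the substrate of its proteases, were thus higher in knockout libraries. Transcripts of C3 and C2 overlapped between the groups, and protein was not measured.

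C1qa, C1qb and C1qc lie side by side on the minus strand of chromosome 4, within 18675 bases of the GRCm38 build, with gaps of 3616 bases between C1qb and C1qc and 2851 bases between C1qc and C1qa. C1qa (ENSMUSG00000036887, chr4:136895917-136898803, 3 exons, 1040 exonic bases) had 11.3, 10.4 and 8.30 FPKM in knockout libraries, against 3.88 and 5.67 FPKM in heterozygous and 5.00 and 3.89 FPKM in wildtype libraries. The lowest knockout library thus stood above the highest control, although the controls themselves spread over a wider range than those of its neighbours. On the scale used for all tests, log2(FPKM + 1), C1qa was higher than in all controls by 0.97 ± 0.14 (SE; limma over all tested genes, Benjamini-Hochberg adjusted p = 0.0343). Against wildtype alone the difference was 1.01 ± 0.18 (limma, adjusted p = 0.158) and against heterozygous alone 0.94 ± 0.18 (adjusted p = 0.167), both short of the threshold of 0.05.

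C1qb (ENSMUSG00000036905, chr4:136880129-136886187, 3 exons, 1088 exonic bases) had 10.5, 9.97 and 8.87 FPKM in knockout, 4.49 and 4.86 FPKM in heterozygous and 4.71 and 5.18 FPKM in wildtype libraries. Its controls were the tightest of the C1q genes, at 4.81 ± 0.290 FPKM (SD, n = 4), against 9.78 ± 0.826 FPKM in knockout libraries (n = 3). C1qb rose in knockout by 0.86 ± 0.09 against wildtype (limma, adjusted p = 0.0209), by 0.92 ± 0.09 against heterozygous (adjusted p = 0.0162) and by 0.89 ± 0.07 against all controls (adjusted p = 0.00183).

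C1qc (ENSMUSG00000036896, chr4:136889804-136893065, 3 exons, 1931 exonic bases) had 5.17, 4.85 and 4.85 FPKM in knockout, 1.87 and 2.02 FPKM in heterozygous and 2.37 and 2.64 FPKM in wildtype libraries. In FPKM it was the least abundant chain gene in every library, but this rank depends on the length used. Its FPKM divide by all 1931 exonic bases, whereas its longest annotated transcript has 1203 bases. For C1qa and C1qb the 2 lengths are equal, so C1qc may be understated beside them. The 3 genotypes did not overlap in C1qc, with heterozygous the lowest. C1qc rose in knockout by 0.76 ± 0.09 against wildtype (limma, adjusted p = 0.0281), by 1.01 ± 0.09 against heterozygous (adjusted p = 0.00929) and by 0.89 ± 0.10 against all controls (adjusted p = 0.00869). Read numbers behind these values were modest, with 118 to 156 reads in knockout and 51 to 85 reads in control libraries over the 3 genes.

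The proportions of the C1q chains overlapped between the groups. The size of these ratios depends on the gene lengths behind FPKM, while their comparison between groups does not. C1qa over C1qc was 2.19, 2.14 and 1.71 in knockout libraries, against 1.47 to 2.80 in controls, a log2 difference of -0.04 (exact two-sided permutation test over libraries, p = 0.971, Benjamini-Hochberg adjusted p = 0.971 over 5 ratios). C1qb over C1qc was 1.83 to 2.06 in knockout libraries and 1.96 to 2.40 in controls, a log2 difference of -0.14 (exact permutation p = 0.343, adjusted p = 0.571). With 3 libraries against 4, the smallest p this test allows is 0.0571, so it cannot pass 0.05.

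**Figure D1:**
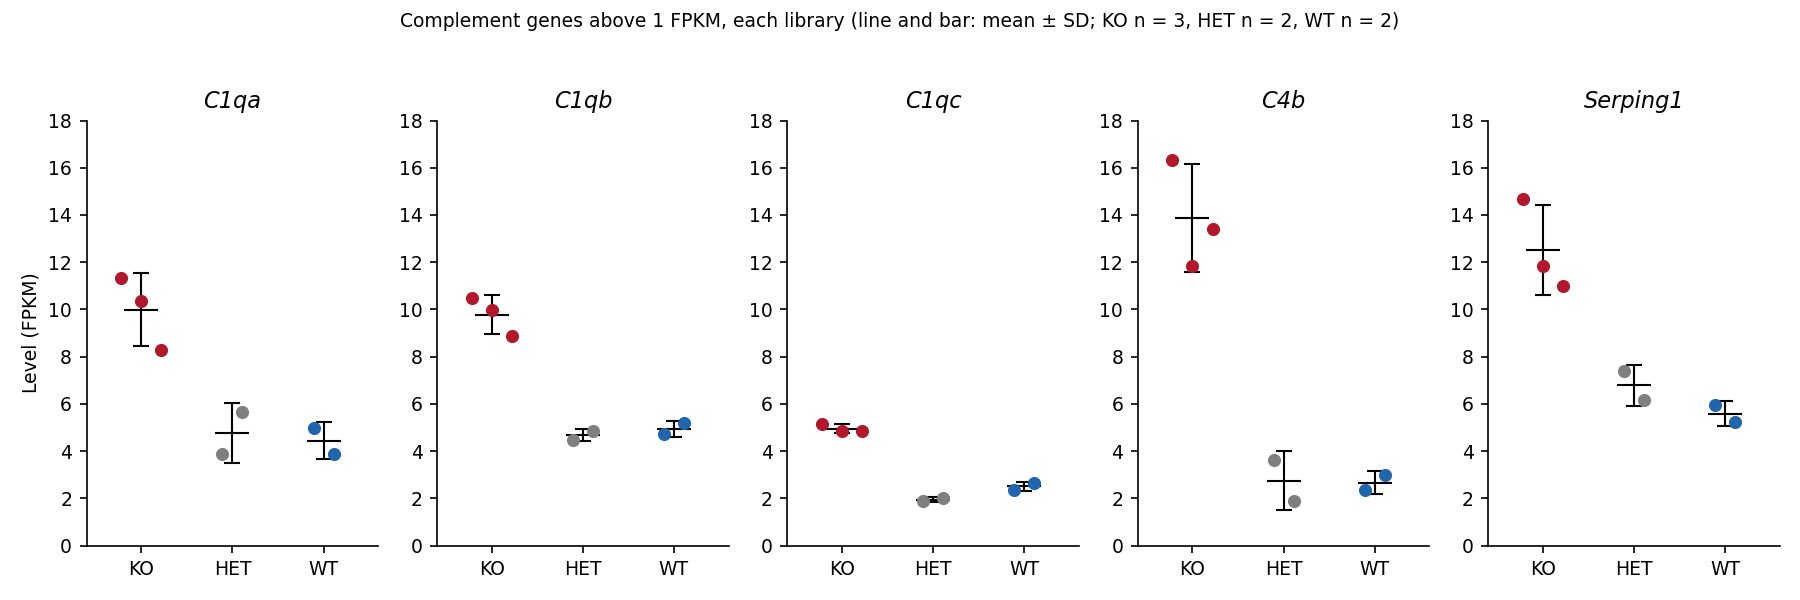
Levels in FPKM (vertical axis) of C1qa, C1qb, C1qc, C4b and Serping1 in knockout (KO), heterozygous (HET) and wildtype (WT) libraries, 1 point per library, with the mean and SD of each genotype. In every panel all 3 knockout points lie above all 4 control points, with C4b the most widely parted, at 11.8 to 16.3 FPKM in knockout against 1.87 to 3.64 FPKM in controls.

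Promoters of C1qb and C1qc are shown because these neighbouring genes rose together, each as 250 bases before and 50 bases after the start site. They are RefSeq sequence of build GRCm38.p6, 5′ to 3′ on the minus strand, at chr4:136886151-136886450 for C1qb and chr4:136892865-136893164 for C1qc. Capitals mark matches to any of 5 motifs searched on both strands: TTCNNNGAA of STAT factors, GAAANNGAA of interferon-responsive elements, GAGGAAG of PU.1, TGANTCA of AP-1 and TTGCNNAA of C/EBP factors.
C1qb: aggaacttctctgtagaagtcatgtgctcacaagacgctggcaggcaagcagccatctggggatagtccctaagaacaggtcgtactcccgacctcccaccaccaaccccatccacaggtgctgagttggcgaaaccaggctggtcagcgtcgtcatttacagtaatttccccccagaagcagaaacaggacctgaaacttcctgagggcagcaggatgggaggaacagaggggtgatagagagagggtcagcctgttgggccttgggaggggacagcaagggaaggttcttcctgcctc
C1qc: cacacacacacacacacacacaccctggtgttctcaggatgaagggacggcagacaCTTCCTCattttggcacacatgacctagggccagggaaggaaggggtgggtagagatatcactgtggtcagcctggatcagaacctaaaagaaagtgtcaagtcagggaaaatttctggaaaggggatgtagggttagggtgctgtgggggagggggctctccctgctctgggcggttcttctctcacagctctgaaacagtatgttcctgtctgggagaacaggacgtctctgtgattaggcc
The C1qb window held no match to any of the 5. The C1qc window held a single match, to GAGGAAG on its reverse strand, at position -194 from the start site. Of all 32851 promoter windows, 13.6% held this motif, 8.30% the STAT motif, 8.56% the interferon motif, 7.81% the AP-1 motif and 10.8% the C/EBP motif. RefSeq windows were at hand for 4 of the 9 genes, the others being C1ra, with a match to the STAT and to the C/EBP motif, and C3, with a match to the C/EBP motif at position -45. These matches describe letters and not binding.

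C4b (ENSMUSG00000073418, chr17:34728380-34743882, minus strand, 40 exons, 5695 exonic bases) encodes complement component C4, cleaved by C1s and by the lectin pathway proteases. It had 16.3, 11.8 and 13.4 FPKM in knockout libraries, against 3.64 and 1.87 FPKM in heterozygous and 2.34 and 3.00 FPKM in wildtype libraries. The lowest knockout library exceeded the highest control more than with any other of the 9 genes, and the heterozygous and wildtype values were intermingled. C4b rose in knockout by 2.01 ± 0.23 against wildtype (limma, adjusted p = 0.0261), by 2.01 ± 0.23 against heterozygous (adjusted p = 0.0252) and by 2.01 ± 0.18 against all controls (adjusted p = 0.00227). In knockout libraries it had the most reads of the 9 genes, 951 to 1231, against 139 to 293 reads in controls. C4b was highest within knockout and within heterozygous in the lens-rich libraries, knockout 1 and heterozygous 1. Its difference from all controls was 2.01 without both of them and 1.99 with lens level added to the fit (limma, adjusted p = 0.0187 and 0.00126).

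C4b has a close neighbour and paralog, C4a, 65209 bases away on the same strand, which shares 35.2% of the 50-base windows of the C4b transcript. How reads that match both were assigned is not given in the sources used here, so levels of the 2 genes carry that uncertainty. C4a had 0.719, 0.822 and 0.860 FPKM in knockout, 0.593 and 0.605 FPKM in heterozygous and 0.837 and 0.652 FPKM in wildtype libraries. Its libraries overlapped, with a difference of 0.11 ± 0.09 from all controls (limma, adjusted p = 0.736). C4b over C4a was 14.4 to 22.7 in knockout and 2.80 to 6.14 in control libraries.

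Relative to C1q, C4b stood higher in every knockout library than in any control. The ratio of C4b to the mean of the 3 C1q genes was 1.82, 1.41 and 1.83 in knockout libraries, against 1.07 and 0.447 in heterozygous and 0.581 and 0.769 in wildtype libraries. The log2 difference of 1.30 reached the smallest p the exact two-sided permutation test allows (p = 0.0571, adjusted p = 0.143 over 5 ratios). C4b made up 23.1 to 26.7% of the summed FPKM of the 9 genes in knockout libraries and 8.23 to 15.1% in controls, and that sum was 50.1 to 61.2 FPKM in knockout and 22.3 to 24.2 FPKM in controls.

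Serping1 (ENSMUSG00000023224, chr2:84765387-84775444, minus strand, 8 exons, 2325 exonic bases), the gene of the C1 inhibitor, had 14.7, 11.9 and 11.0 FPKM in knockout, 7.40 and 6.16 FPKM in heterozygous and 5.97 and 5.22 FPKM in wildtype libraries. The genotypes did not overlap, and the heterozygous libraries stood between the others. The gene rose in knockout against all controls, by 0.91 ± 0.12 (limma, adjusted p = 0.0234). Its differences of 1.03 ± 0.14 from wildtype (adjusted p = 0.0515) and 0.79 ± 0.14 from heterozygous libraries (adjusted p = 0.125) did not pass.

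Within knockout and within heterozygous, Serping1 was highest in the lens-rich library, knockout 1 and heterozygous 1. Without both libraries it was still called against all controls, at 0.88 (limma, adjusted p = 0.0336). With lens level added to the fit it was called in all 3 knockout comparisons, at 0.89 against all controls (adjusted p = 0.00352), 0.95 against wildtype (adjusted p = 0.0224) and 0.83 against heterozygous (limma, adjusted p = 0.0295). It also passed against wildtype with a pseudocount of 0.1 (limma, adjusted p = 0.0482) and with voom on recovered reads (adjusted p = 0.0102). Of 16 alternative settings, only 3 called Serping1 against wildtype, 2 against heterozygous and 8 against all controls. Unlike that of C4b, the ratio of Serping1 to C1q overlapped between the groups, with ratios to the mean C1q level of 1.63, 1.41 and 1.50 in knockout, 2.17 and 1.47 in heterozygous and 1.48 and 1.34 in wildtype libraries. The log2 difference of -0.07 between knockout and controls was small against the spread of the controls (exact permutation p = 0.971, adjusted p = 0.971).

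**Figure D2:**
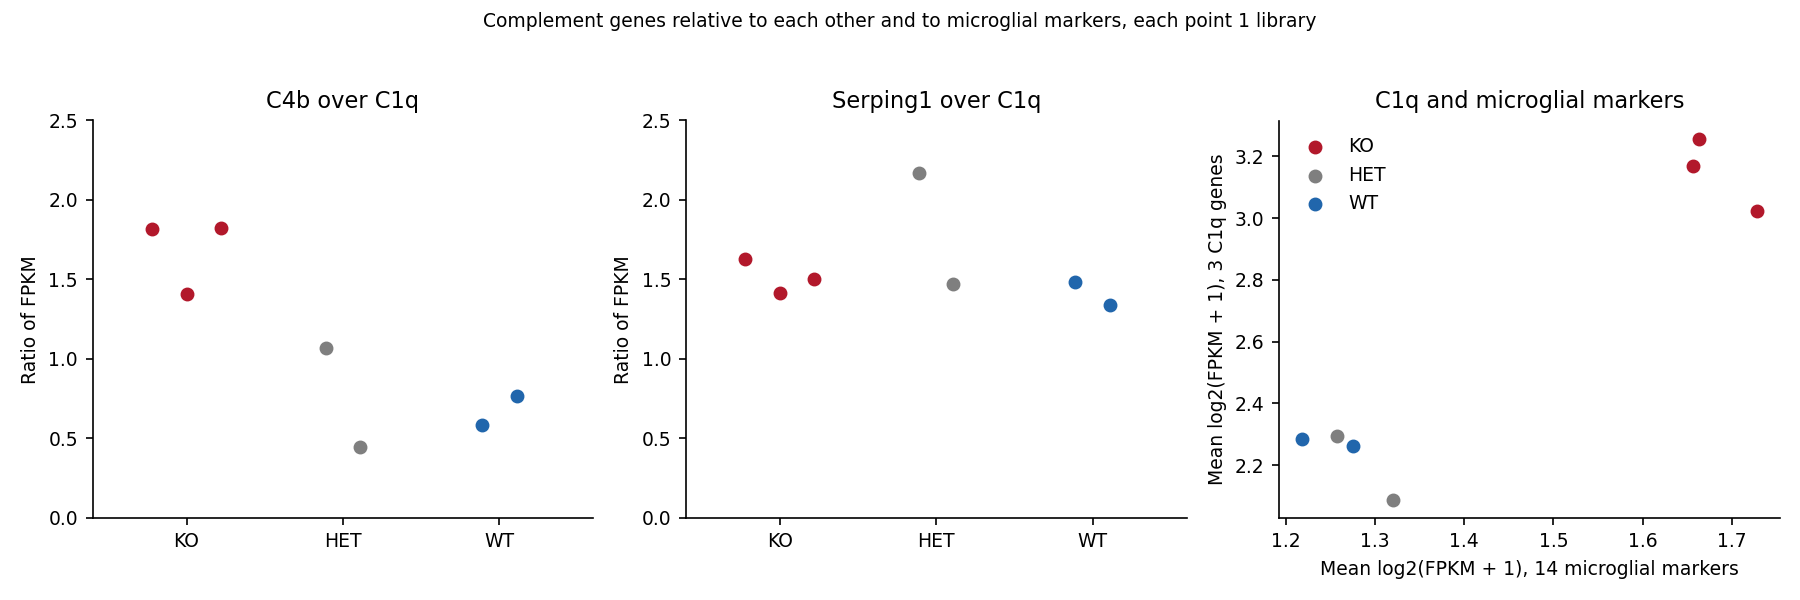
Left and middle, ratio of FPKM of C4b and of Serping1 to the mean of C1qa, C1qb and C1qc, by genotype. Right, mean log2(FPKM + 1) of the 3 C1q genes against that of 14 microglial markers. Each point is 1 library; knockout (KO) ratios of C4b to C1q, 1.41 to 1.83, lie above those of the controls, 0.447 to 1.07, while the ratios of Serping1 overlap, and KO libraries are highest on both axes at the right.

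The order of mean levels was not the same in the groups. In knockout libraries C4b came first at 13.9 ± 2.29 FPKM (SD, n = 3), followed by Serping1 at 12.5 ± 1.91, C1qa at 10.0 ± 1.55, C1qb at 9.78 ± 0.826 and C1qc at 4.95 ± 0.185 FPKM. The libraries of neighbours in this order overlapped down to C1qb, and those of C1qc lay below. In controls Serping1 came first at 6.19 ± 0.905 FPKM (n = 4), followed by C1qb at 4.81 ± 0.290, C1qa at 4.61 ± 0.881, C4b at 2.71 ± 0.774 and C1qc at 2.23 ± 0.348 FPKM. There, C1qb and C1qa overlapped, as did C4b and C1qc. The order also depends on the gene length behind FPKM. That length exceeds the longest annotated transcript for C1qc (1931 against 1203 bases), Serping1 (2325 against 1768) and C4b (5695 against 5379).

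Cfi, the gene of factor I (ENSMUSG00000058952, chr3:129835884-129875332, plus strand, 15 exons, 2220 exonic bases), had 1.09, 0.958 and 1.71 FPKM in knockout, 0.797 and 0.587 FPKM in heterozygous and 0.647 and 0.836 FPKM in wildtype libraries. All knockout libraries lay above all controls, on 30 to 52 reads against 17 to 28 reads. The difference of 0.38 ± 0.13 from all controls did not pass over all genes (limma, adjusted p = 0.438). Genes at this level were tested among the 24644 genes averaging 0.1 FPKM or more, and on the log2(FPKM + 1) scale their fold changes are understated.

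C3 (ENSMUSG00000024164, chr17:57203970-57228136, minus strand, 42 exons, 5143 exonic bases), the gene of the central component, had 0.426, 0.358 and 0.583 FPKM in knockout, 0.385 and 0.268 FPKM in heterozygous and 0.253 and 0.451 FPKM in wildtype libraries. It was the least abundant of the 9 genes in both groups, and knockout and control libraries overlapped. Its difference from all controls was 0.12 ± 0.10 (limma, adjusted p = 0.721), on 26 to 41 reads in knockout and 18 to 35 reads in controls.

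C1ra (ENSMUSG00000055172, chr6:124512405-124523443, plus strand, 11 exons, 2981 exonic bases), which encodes the protease C1r, had 0.913, 0.713 and 0.540 FPKM in knockout, 0.641 and 0.514 FPKM in heterozygous and 0.459 and 0.267 FPKM in wildtype libraries. Knockout libraries lay above wildtype but overlapped with heterozygous, and the difference of 0.34 ± 0.14 from wildtype did not pass (limma, adjusted p = 0.761). Its paralog C1rb and the model Gm18840 share 50.8% of its 50-base windows. C1rb itself held 4, 0 and 6 reads in knockout libraries and a single read in all 4 controls, too few for a fold change.

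C2 (ENSMUSG00000024371, chr17:34862604-34898265, minus strand, 23 exons, 3872 exonic bases), the protease partner of C4, was the gene whose mean was lower in knockout, with 0.742, 0.421 and 0.850 FPKM there, 1.06 and 0.772 FPKM in heterozygous and 0.565 and 1.06 FPKM in wildtype libraries. These overlapped, and the difference of -0.16 ± 0.14 from all controls did not pass (limma, adjusted p = 0.756). Of its exonic bases, 42.8% lie in the model Gm20547, listed at 0 in all 7 libraries, and 161 bases lie opposite Zbtb12, at 2.91 to 5.05 FPKM. The kit did not mark the strand and the handling of such reads is not given, so the C2 level is uncertain.

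**Figure D3:**
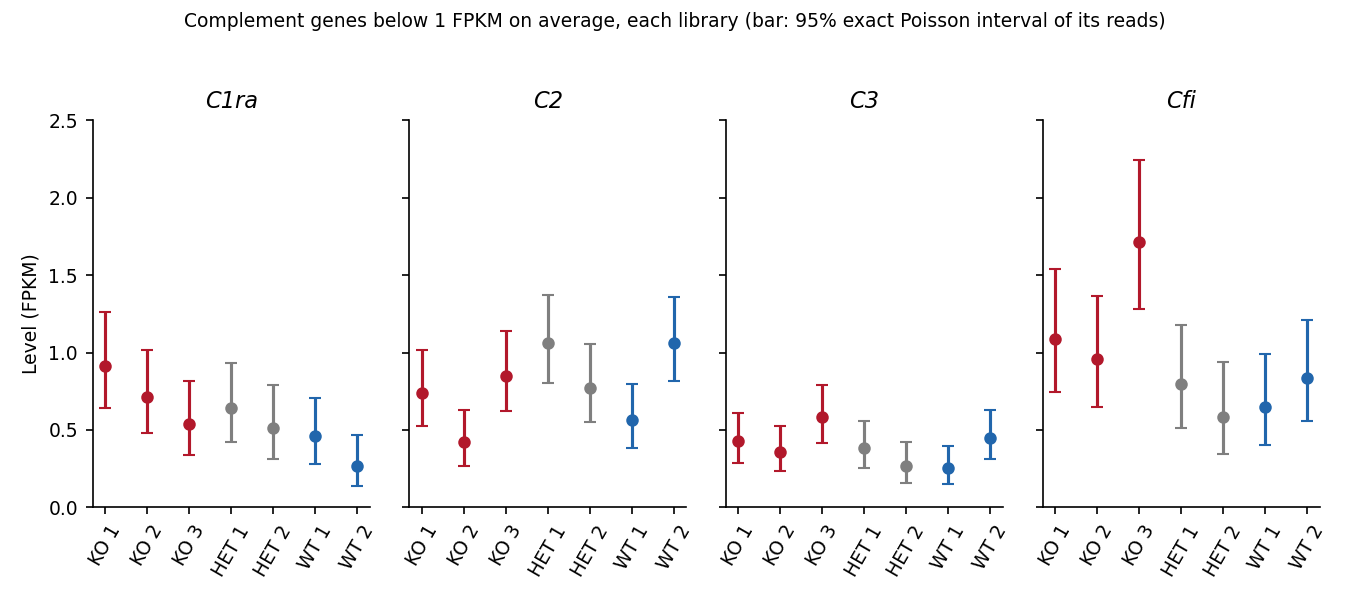
Levels in FPKM (vertical axis) of C1ra, C2, C3 and Cfi in each library (horizontal axis; KO, HET and WT are knockout, heterozygous and wildtype), with bars for the 95% exact Poisson interval of the reads, which covers counting error only. Most intervals overlap between the groups, and Cfi is the gene whose 3 knockout points, from 0.958 FPKM upwards, all lie above the controls.

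Setting knockout against wildtype asks how these transcripts stand without Agbl5. Of the 5 complement genes averaging 1 FPKM or more, C4b, C1qb and C1qc passed, all higher, while 0.265% of all 15472 tested genes were called higher. With all 9 genes tested among those of at least 0.1 FPKM, the same 3 passed, against 0.166% of genes, and the median difference of the 9 was 0.76, against 0.00 over all genes. These calls rested on few libraries. Without wildtype 1 or wildtype 2, a single wildtype library remained and these calls were not kept. C4b then stood at 1.88 and 2.14, C1qb at 0.80 and 0.91 and C1qc at 0.71 and 0.82. The 3 calls were lost without knockout 1 or knockout 2 as well (limma, adjusted p from 0.0923 to 0.158). Of all 15472 genes, 50 were called in either direction with all libraries, 19 and 21 in those 2 runs and 32 without knockout 3. Without knockout 3, C1qb remained called and C4b and C1qc did not, at 2.03 and 0.78 (adjusted p = 0.101 and 0.117).

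Against heterozygous libraries, the same 3 genes passed, C4b and C1qb with differences close to those from wildtype and C1qc with a larger one, 1.01 against 0.76. Knockout had 2.54 times the heterozygous and 1.97 times the wildtype mean level of C1qc. The background was 0.271% of 15472 genes called higher, and 0.183% among those of at least 0.1 FPKM, where again 3 of 9 passed with a median of 0.79. In either direction, 49 of the 15472 genes were called with all libraries and 22 to 30 with a knockout library left out. Leaving out a library removed at least 2 of the calls, with differences from 1.67 to 2.36 for C4b, 0.88 to 0.99 for C1qb and 0.98 to 1.05 for C1qc. C1qc remained called without heterozygous 2, wildtype 1 or wildtype 2, C1qb without knockout 3, and C4b without heterozygous 1.

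Against all 4 controls, all 5 of the better expressed genes passed, while 0.465% of tested genes were called higher. Among genes of at least 0.1 FPKM 4 of 9 passed, C1qa falling just short (limma, adjusted p = 0.0505), against 0.317% of genes, with a median of 0.89 against 0.01 over all genes. C4b and C1qb were called under all 16 alternative settings, with adjusted p up to 0.0349 for C4b and 0.0336 for C1qb. Of all tested genes, 95 were called in either direction with all libraries and 45 to 90 with a library left out. C1qc was lost without knockout 1, 2 or 3 (0.86 to 0.90, limma, adjusted p from 0.0504 to 0.0608). C1qa was lost in every run that left out a library other than heterozygous 2 (0.89 to 1.09, adjusted p up to 0.173), and Serping1 in every such run other than that without heterozygous 1 (0.80 to 0.99, adjusted p up to 0.104). Without both lens-rich libraries C4b, C1qb and Serping1 remained called and C1qa and C1qc did not, at 0.82 and 0.81 (adjusted p = 0.240 and 0.0923). With lens level added to the fit C1qa was the gene lost, at 0.97 (limma, adjusted p = 0.0634), and against wildtype C1qb and C1qc were lost, at 0.85 and 0.76 (adjusted p = 0.0676 and 0.0871). These comparisons share the knockout libraries and are not independent of each other.

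Counting libraries instead, 6 of the 9 genes had every knockout library above every control, C1qa, C1qb, C1qc, C4b, Serping1 and Cfi. Among all 24644 genes of at least 0.1 FPKM this held for 5.66%.

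**Figure D4:**
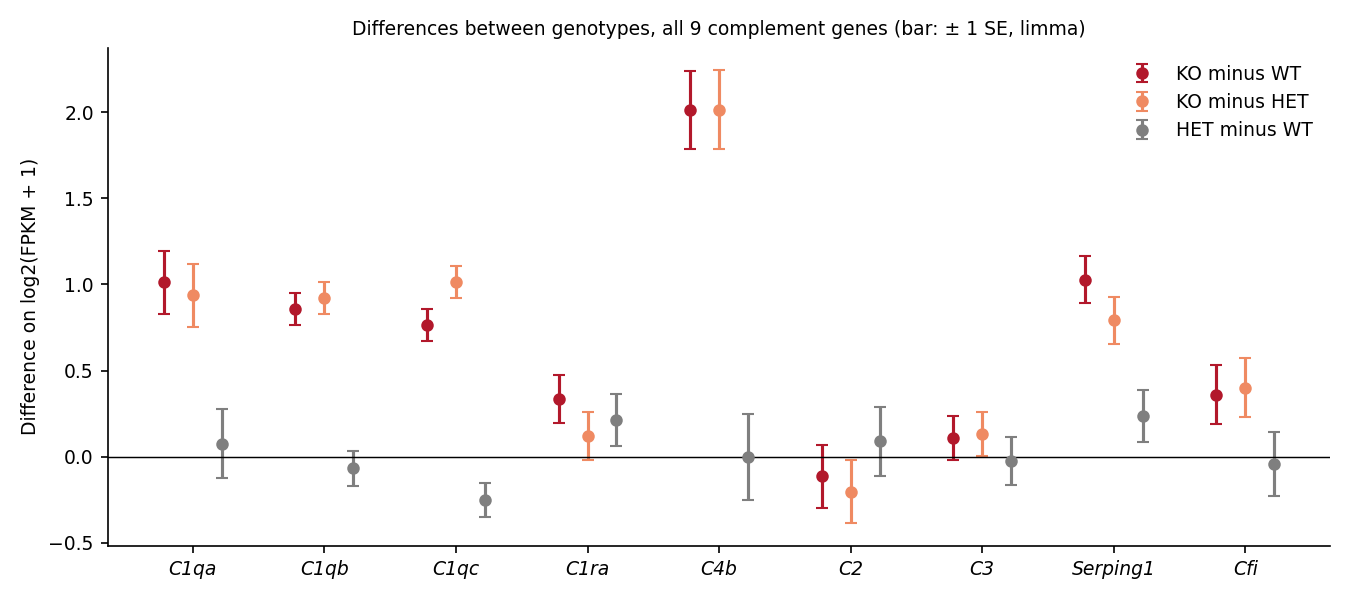
Differences on the log2(FPKM + 1) scale (vertical axis) with their SE from limma for all 9 complement genes, as knockout minus wildtype, knockout minus heterozygous and heterozygous minus wildtype. C4b stands highest at 2.01 in both knockout comparisons, the C1q genes and Serping1 lie between 0.76 and 1.03, and the heterozygous minus wildtype values lie between -0.25 and 0.24.

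Heterozygous libraries were compared with wildtype to see whether loss of a single copy was accompanied by a difference. None of the 9 genes passed, and 0% of the 15472 genes did (limma, with 1 complement gene and 4% of all genes at an unadjusted p under 0.05, and 0 called by limma voom on recovered reads). That gene was C1qc, lower in heterozygous by 0.25 ± 0.10 (heterozygous minus wildtype -0.25; limma, adjusted p = 0.974; 95% interval -0.48 to -0.02). For C4b the difference was 0.00, with an interval from -0.59 to 0.59, and for Serping1 0.24, with an interval from -0.12 to 0.59. For C1qb the difference was -0.07, with an interval from -0.31 to 0.17, which lies below its rise in knockout.

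Other parts of the system were read from a list of 51 further complement genes. Of these, 11 were listed at 0 in every library, among them the terminal components C6 and C9 and the lectins Mbl1 and Mbl2, and 14 had a mean of at least 1 FPKM. None of the 14 passed in any of the 4 comparisons (limma), and at an unadjusted p under 0.05 there were 4 against wildtype, 2 against heterozygous and 5 against all controls. Of all 15472 tested genes, 7.5%, 12% and 12.2% were under that p in the same comparisons. Voom on recovered reads called 1 gene, Clu, against wildtype and against all controls (adjusted p = 0.0346 and 0.0309) and 0 against heterozygous. It called 0.52% of all 14796 genes it tested against wildtype, 1.02% against all controls and 0.52% against heterozygous. The median difference of the 14 from all controls was 0.12 (limma), against 0.00 over all genes.

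Clu, which encodes clusterin, an inhibitor of the terminal complex with many other roles, had 345, 272 and 268 FPKM in knockout, 236 and 174 FPKM in heterozygous and 177 and 155 FPKM in wildtype libraries. Knockout lay above all controls, and the lens-rich library was again the highest of knockout and of heterozygous. The difference was 0.67 ± 0.15 from all controls (limma, adjusted p = 0.161). Cd59a, whose product blocks the membrane attack complex, had 15.9, 16.3 and 15.7 FPKM in knockout and 12.2 to 14.5 FPKM in controls, a difference of 0.21 ± 0.07 (adjusted p = 0.302). Neither Clu nor Cd59a overlapped between knockout and controls, and neither passed with limma. Among all 24644 genes of at least 0.1 FPKM, 5.66% had every knockout library above every control.

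All 4 further genes of the classical pathway and 9 of 11 receptor genes averaged below 1 FPKM. C1s1, the gene of the protease C1s, had 0.544 to 0.628 FPKM in knockout and 0.197 to 0.724 FPKM in control libraries, a difference of 0.05 ± 0.14 (limma, adjusted p = 0.926). Cfb, the gene of factor B of the alternative pathway, lies 85 bases from C2 and had 9 to 11 reads in knockout and 6 to 11 in controls, a difference of 0.06 ± 0.08 (adjusted p = 0.822). It shares 79.5% of its exonic bases with Gm20547. C3ar1, the C3a receptor, had 0.170 to 0.193 FPKM in knockout and 0.111 to 0.185 FPKM in controls, and differed by 0.03 ± 0.07 (adjusted p = 0.914). Itgam, a chain of complement receptor 3, had 6 to 15 reads in knockout and 4 to 9 in controls and shares 68.7% of its exonic bases with Gm49368, and C5ar1, the C5a receptor, had 3 to 7 reads in knockout and 1 or 2 in controls. The receptor genes above 1 FPKM were Lrp1, which encodes an endocytic receptor, and C1qbp, whose product binds C1q and is mainly mitochondrial. Lrp1 had 19.3, 16.9 and 19.0 FPKM in knockout and 14.7 to 16.9 FPKM in controls, a difference of 0.23 ± 0.07 (limma, adjusted p = 0.288). C1qbp had 7.37 to 9.52 FPKM in knockout and 6.10 to 8.74 FPKM in controls, a difference of 0.13 ± 0.13 (adjusted p = 0.706). Both overlapped between knockout and controls.

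**Figure D5:**
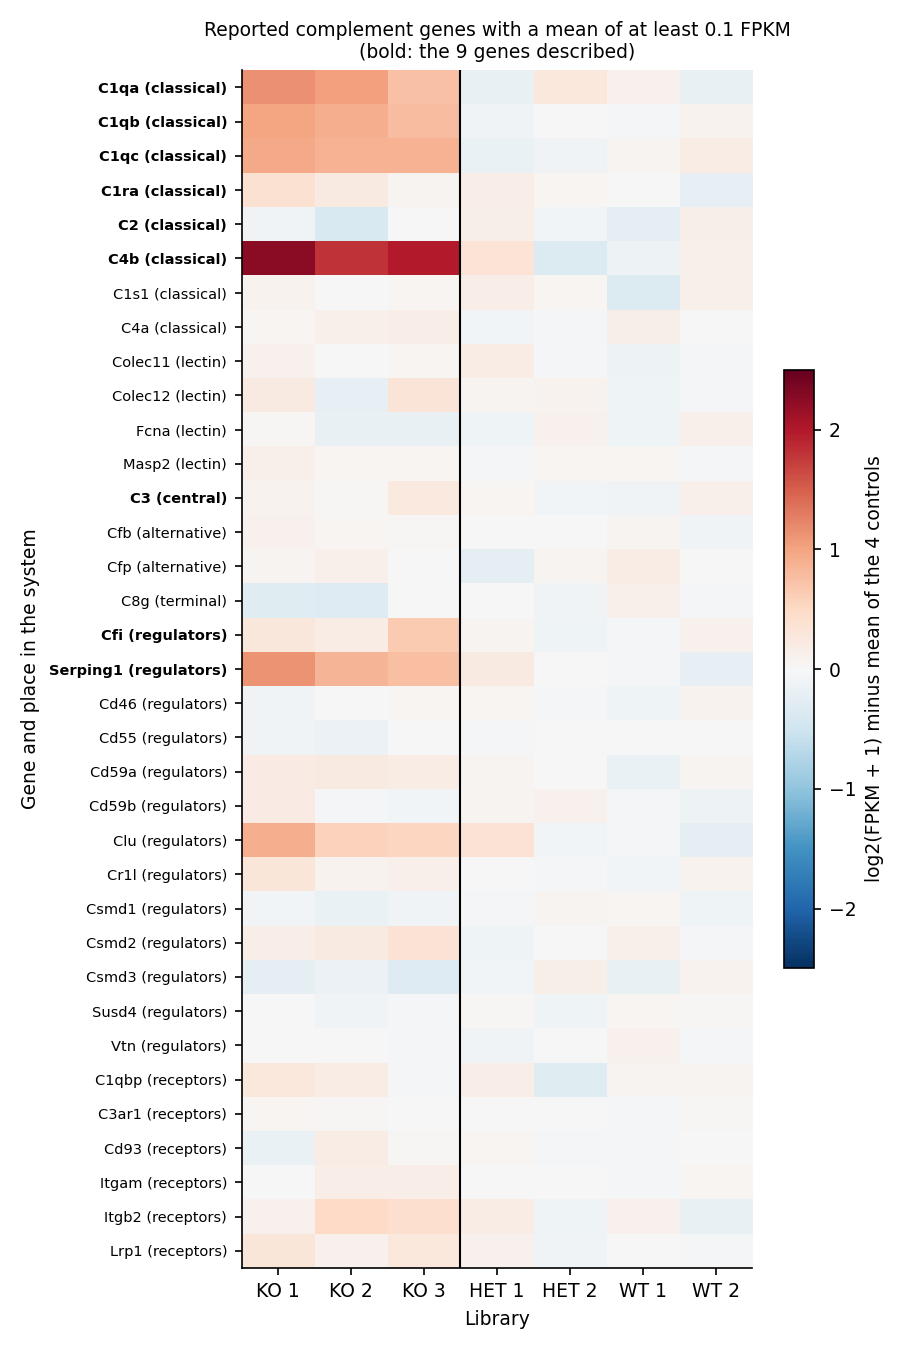
Complement genes reported here that average 0.1 FPKM or more (rows, 9 described genes in bold, with their place in the system) in each library (columns; KO, HET and WT are knockout, heterozygous and wildtype), coloured by log2(FPKM + 1) minus the mean of the 4 controls. C4b, the C1q genes and Serping1 are the deepest red rows in the KO columns, followed by Clu, Cfi and Itgb2.

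Microglial markers moved with the C1q genes. The summed level of 14 markers free of complement genes was 48.1 to 53.7 FPKM in knockout, 30.9 to 32.1 FPKM in heterozygous and 29.7 to 29.9 FPKM in wildtype libraries. Of the 14, 11 had all knockout libraries above all controls. This held for 5.66% of all genes of at least 0.1 FPKM, a level that 13 of the 14 markers reached. Csf1r, the receptor on which microglia depend, averaged 4.93 FPKM in knockout, 2.47 FPKM in heterozygous and 2.18 FPKM in wildtype libraries and rose against wildtype by 0.90 ± 0.08 (limma, adjusted p = 0.0119). Of the 8 markers averaging 1 FPKM or more, Csf1r alone was called against wildtype and against heterozygous, and Csf1r and Ctss against all controls. Of all 15472 tested genes, 0.265%, 0.271% and 0.465% were called higher in these comparisons. The defining markers Tmem119 and P2ry12 were detected in every library. On mean log2(FPKM + 1) levels, C1q exceeded these markers by 1.29 to 1.59 in knockout and by 0.77 to 1.07 in control libraries, a difference of 0.50 (exact two-sided permutation p = 0.0571, the smallest possible; adjusted p = 0.143 over 5 ratios). That scale compresses markers of low level. On log2 of plain FPKM, tried after seeing the data, the difference was 0.26 and the groups overlapped (exact permutation p = 0.171). In plain FPKM the 14 markers had 1.12 to 3.16 times the control mean in knockout, with a median of 1.87, against 2.03 to 2.22 times for the C1q genes. Aif1, Trem2 and Ctss stood above the C1q range, Csf1r within it and the other 10 below it.

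Reactive glial markers were higher too, with a summed level of 92.8 to 145 FPKM in knockout, 53.8 to 98.3 FPKM in heterozygous and 47.0 to 50.4 FPKM in wildtype libraries over 6 genes, of which Serpina3n and Stat3 rose against wildtype by 2.57 ± 0.17 and 1.17 ± 0.08 (limma, adjusted p = 0.00406 for each). The lens-rich heterozygous 1 was within the knockout range, at 98.3 FPKM. Mueller glial markers summed to 952 to 996 FPKM in knockout and 986 to 1066 FPKM in controls, and none of 6 passed. Of 6 interferon-induced genes, H2-K1 rose against wildtype by 0.70 ± 0.07 (limma, adjusted p = 0.0201). The sums were 30.7 to 32.1 FPKM in knockout and 20.3 to 22.3 FPKM in controls. Against wildtype, 0.265% of all 15472 tested genes were called higher. The part of these cells and responses in the complement levels was not tested.

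Markers of blood-borne leukocytes and of liver were at or near 0, apart from a gene shared with the eye. Infiltrating leukocyte markers summed to 0.339 to 0.453 FPKM in knockout and 0.351 to 0.643 FPKM in controls, with the T cell gene Cd3e at 0 throughout. The liver genes Alb and Serpina1a, from the main source of plasma complement, were listed at 0 in all 7 libraries. The liver list summed to 51.5 to 87.5 FPKM in knockout and 23.1 to 45.6 FPKM in controls, almost all of it Ttr, which pigment epithelium also expresses. Red blood cell genes summed to 30.4 to 42.4 FPKM in knockout and 31.9 to 67.4 FPKM in controls. Pigment epithelial markers (66.8 to 219 FPKM in knockout, 35.0 to 188 FPKM in controls), stromal markers (1.64 to 5.52 and 1.72 to 8.56 FPKM) and vascular markers (38.2 to 41.5 and 31.8 to 42.3 FPKM) had no called member in any comparison (limma), nor had the lens list, at 3.21 to 4490 FPKM in knockout and 8.19 to 2788 FPKM in controls. Retinal markers summed to 6932 to 7035 FPKM in knockout and 7586 to 8777 FPKM in controls, so the sums did not overlap. None of these 6 markers was called by limma. Voom on recovered reads called 1 of the 6 against heterozygous and against all controls, beside 0.52% and 1.02% of all genes.

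The genes whose pattern over the 7 libraries was most like that of mean C1q, by Pearson correlation on log2(FPKM + 1), were Gnb3 (r = 0.993), Tnnt2 (0.991), Klhl36 (0.991), Cerkl (0.989) and Stat3 (0.988). For C4b they were Lad1 (r = 0.992), Fgf2 (0.988), Pcolce (0.987), the antisense gene Gm26954 (0.986) and Gpr146 (0.985). The 7 libraries fall into knockout and control clusters, so each r mainly describes the gap between them and is no test.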

How the data were processed

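Polyadenylated RNA of mouse eye samples was sequenced in 7 libraries made with a NEBNext Ultra kit, per the labels' protocols. The authors deposited FPKM, scaled by gene length and library size, for 54532 genes. The submitters' processing notes name HTSeq, DESeq, Bowtie2 2.0.6 and TopHat2 2.0.9, and the builds mm10 and GRCm38; settings are not given in the sources used here. Positions and exon lengths came from GENCODE release M21, which held 54495 of the gene identifiers. Within 0.01, 96.8% of nonzero values equalled a whole number of reads, so whole reads were recovered for 32141 genes in every library. Intervals and floors cover counting error only.

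The members, lists, motifs and tests were chosen with earlier results of these data known. FPKM were tested as log2(FPKM + 1) with limma 3.58.1 in R 4.3.3, moderated by empirical Bayes along a mean-variance trend, on the 15472 genes averaging 1 FPKM or more. C1ra, C2, C3 and Cfi came from the same fit on 24644 genes with at least 0.1 FPKM. P-values were adjusted by Benjamini-Hochberg over all genes of the fit, with 0.05 as the threshold. A fit of 3 genotypes gave the pairwise comparisons, and a fit of 2 groups gave knockout against all controls. Ratios were tested by exact two-sided permutation over libraries (scipy 1.17.1). All 9 genes were named whatever their value, as were Cfb, Cd59a, Clu, C3ar1, C5ar1, Itgam, C4a, C1s1, C1rb and any called gene of the list of 51. A further gene that the rule names is not reported here. Mbl1, Mbl2, C6, C9, Itgb2, Lrp1 and C1qbp were named after their values were seen.

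Alternatives were a pseudocount of 0.1, no filter or a filter of 0.1 FPKM, TPM scaling, each library left out, both lens-rich libraries left out, the replicate number as a block, lens or Ddx3y level as a covariate, and voom on recovered reads. Setting C1q against microglial markers without a pseudocount was chosen after seeing the data.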

Additional observations from a re-analysis of the deposited data

Results flagged for a closer look

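C5ar1, the C5a receptor gene, stood apart in wildtype 1, at 0.0532 FPKM, the highest of the 4 control libraries, with a gap to the next that took up 0.854 of the controls' range. This is 2 reads against 1 read in each of the other controls. C1rb, the paralog of C1ra, was at 0.0291 FPKM in heterozygous 1, a single read, with the other 3 controls at 0. In both cases the distance exceeded Dixon's critical value for 4 values. With the other controls tied in reads, a single read more is enough for this, so the flag says little about either gene.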

How the results depend on the processing

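Of the 5 complement genes tested, 3 passed against wildtype. This count was 4 with a pseudocount of 0.1 and with voom, 2 with the lens level as a covariate, 1 without a filter, 1 on the TPM scale, 0 without both lens-rich libraries, 0 with Ddx3y as a covariate and 0 to 3 with a library left out. Against heterozygous it was 3, and 4 with the lens covariate and with voom, 0 without the lens-rich libraries, 1 with Ddx3y as a covariate and 0 to 1 with a library left out. Against all controls it was 5, and 3 without a filter, 3 without the lens-rich libraries and 2 to 4 with a library left out. Heterozygous against wildtype gave 0 under all 16 alternatives. Calls over all genes, in either direction, changed as well. Against wildtype they were 50 in the main fit, 77 with voom, 55 without a filter and 33 with Ddx3y as a covariate. They were 28 on the TPM scale and with the lens covariate, and 19 to 32 with a knockout library left out. Against heterozygous they were 49, 35 with Ddx3y as a covariate and 22 to 30 with a knockout library left out. Against all controls they were 95, 79 without a filter and 48 without the lens-rich libraries. The cause of these changes was not tested. The knockout differences of C1qa, C1qb, C1qc, C4b and Serping1 kept their direction in all of these runs, as did those of C1ra, C2, C3 and Cfi from all controls. TPM scaling moved the median of all genes by -0.16 against wildtype, where C4b stood at 2.11 (limma, adjusted p = 0.0296), C1qb at 0.79 (adjusted p = 0.0791) and C1qc at 0.76 (adjusted p = 0.126). Small ratio differences turned sign. The log2 difference of Serping1 over C1q, -0.07, was 0.027 without both lens-rich libraries and ran from -0.15 to 0.081 with a library left out, positive without heterozygous 1. That of C1qa over C1qc, -0.04, ran from -0.20 to 0.11, positive without knockout 3 (0.07) and without heterozygous 2. The excess of C1q over microglial markers, 0.50, was 0.26 without a pseudocount, an alternative chosen after seeing the data. The cause of the sign changes was not tested.

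Replicate numbers are not shown to pair libraries: correlations of same-numbered libraries' deviations ran from -0.02 to 0.43. With the number as a block the counts were 0 against wildtype, 0 against heterozygous and 2 against all controls. Over all genes, 3, 0 and 38 were called in either direction in these comparisons. Depth limits C1ra, C2, C3 and Cfi, which had 12 to 62 reads per library.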

Other observations

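Cfi, C3 and C2 were highest within knockout and within wildtype in the female libraries. Their levels were 1.71, 0.583 and 0.850 FPKM in knockout 3 and 0.836, 0.451 and 1.06 FPKM in wildtype 2. C1ra, C1qa and Serping1 were lowest in both, at 0.540, 8.30 and 11.0 FPKM in knockout 3 and 0.267, 3.89 and 5.22 FPKM in wildtype 2. With the Ddx3y level as a covariate the differences from all controls were 0.35 for Cfi, 0.10 for C3 and 0.25 for C1ra, none of them called (limma, adjusted p = 0.423, 0.744 and 0.510). No heterozygous library was female, and the part of sex in these levels was not tested further.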
